A study of Mus musculus with 14 samples.

Results

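The collagen chains of fibroblasts were 10 genes fixed by name: Col1a1, Col1a2, Col3a1, Col5a1 and Col5a2 of the fibrils, Col4a1 and Col4a2 of basement membranes, and Col6a1, Col6a2 and Col6a3 of beaded filaments. All 10 were found among the 14248 genes listed, and 9 passed the filter on low values in every comparison. Col6a3 did not. The cells were C57BL/6J mouse embryonic fibroblasts (MEFs), connective tissue cells kept in serum-containing medium. Ribo-seq counted the fragments of 25 to 35 nt that ribosomes shield on an mRNA, and RNA-seq counted RNA fragments of 40 to 60 nt after rRNA removal. Lysis was done with cycloheximide, which stalls elongating ribosomes, at 100 µg/ml. The 4 groups were a scrambled hairpin (Scram), a hairpin against Mettl3 (METTL3), a hairpin against Abcf1 (ABCF1), and 250 nM Torin1, which blocks the kinase mTOR, for 2 h (Torin). METTL3 is the enzyme that writes N6-methyladenosine on mRNA, and ABCF1 is an ATP-binding protein associated with ribosomes. Scram, METTL3 and ABCF1 had 2 replicates per assay and Torin had 1 library per assay. The labels state that cells received DMSO or Torin1, but not which hairpin, if any, the Torin cells carried. Replicates may or may not be separate cultures, which the labels leave unstated. If they are not, a p-value reflects technical spread between libraries only.

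A collagen molecule is a triple helix of 3 chains, each built from repeats of glycine followed by a pair of other residues, often proline. Type I collagen pairs α1(I) chains, encoded by Col1a1, with an α2(I) chain from Col1a2, and is the main product of fibroblasts. Col3a1 encodes the homotrimeric type III chain of pliable tissues, and type V chains from Col5a1 and Col5a2 sit inside the fibrils and limit their diameter. Col4a1 and Col4a2 chains join into the network of basement membranes. Col6a1, Col6a2 and Col6a3 chains form the beaded filaments around cells. All of them are made on ribosomes bound to the endoplasmic reticulum, where prolines and lysines are hydroxylated before the helix folds.

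The start of translation is shown for 3 fibrillar chains because Ribo-seq reads report on translation. The 30 bases below run from 12 bases before the start codon (capitals) and were read from the GENCODE M21 transcript sequences, build GRCm38, sense strand. In the type I chains this region is known to fold into a stem-loop that the protein LARP6 binds.
Col1a1: tagggtctagacATGttcagctttgtggac
Col1a2: taagtggtagacATGctcagctttgtggat
Col5a2: tcatatttagacATGatggcaaactgggtg
Col1a1 and Col1a2 had the same base at 24 of the 30 positions. Col5a2 matched each of them at 13.

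The genes are spread over the genome (GRCm38, GENCODE M21 transcripts). Col1a1 lies at chr11:94936224-94953042 and Col1a2 at chr6:4505493-4541544, both on the plus strand. Col3a1 (chr1:45311538-45349706, plus) and Col5a2 (chr1:45374321-45503282, minus) are neighbours, and Col5a1 is at chr2:27886425-28039514 on the plus strand. Col6a1 (chr10:76708792-76726168) and Col6a2 (chr10:76595762-76623630) are also near each other, both on the minus strand, and Col6a3 is at chr1:90766860-90843952 on the minus strand. Ribo-seq values are per coding length and RNA-seq values per exonic length of these transcripts.

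The coding sequences carry the glycine repeat as a run of GGN NNN NNN. A stretch of 8 repeats from the middle of the longest run is shown for 3 chains of different class, with the glycine codon in capitals, from transcript positions 2132 to 2203 in Col1a1, 498 to 569 in Col4a1 and 1372 to 1443 in Col6a1.
Col1a1: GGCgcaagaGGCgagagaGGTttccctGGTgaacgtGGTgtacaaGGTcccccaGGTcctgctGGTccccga
Col4a1: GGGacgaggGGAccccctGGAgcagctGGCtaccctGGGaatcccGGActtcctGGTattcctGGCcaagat
Col6a1: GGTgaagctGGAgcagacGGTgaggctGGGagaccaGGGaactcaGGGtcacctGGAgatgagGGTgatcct
The run was unbroken for 338 repeats in Col1a1 and Col5a1, 339 in Col1a2 and Col5a2, and 344 in Col3a1. It was far shorter in the other chains: 40 in Col4a1, 66 in Col4a2, 87 in Col6a1 and Col6a2, and 45 in Col6a3. The median longest run over 9256 transcripts was 2, and 14 transcripts had 50 or more, all of them collagen genes. Glycine codons made up 26.8% of the coding sequence of Col1a1, 28.6% of Col4a1 and 15.3% of Col6a1, against a median of 6.29%.

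METTL3 methylates adenosines in a short consensus, so GGACT was counted on the sense strand of each transcript. Of the 9256 transcripts, 92.6% held at least 1 copy. Col4a1 held 18 copies, or 2.72 per kb, a density above that of 96.85% of transcripts. Col4a2 held 14, or 2.17 per kb, above 91.05% of transcripts. All 18 copies of Col4a1 and 12 of the 14 of Col4a2 lay in the coding sequence, which is rich in GGN codons. The part of the glycine repeat in these counts was not tested. Col3a1 held 4, or 0.719 per kb, the lowest density of the 10 chains, and the median of all transcripts was 1.06 per kb. A match is a string of letters and not a methylated site. None of the 10 annotated transcripts began with a C followed by 4 pyrimidines, the start of a terminal oligopyrimidine (TOP) mRNA, a class whose translation depends on mTOR. Of all transcripts 2.25% began so, a share at which none among 10 tells little. Annotated starts need not be the true first bases, which were not measured here.

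The libraries came in 2 sets. Replicate 1 files listed several transcripts per gene, while replicate 2 and Torin files listed 1 for nearly every gene, so each comparison is given within its set (Torin against Scram replicate 2). The deposited values imply 1764404 to 5155237 assigned reads per Ribo-seq library and 1197860 to 3802703 per RNA-seq library. Mettl3 RNA-seq levels in METTL3 knockdown were 29.0% and 77.8% of Scram of the same replicate, and Ribo-seq levels were 12.3% and 38.7%. Abcf1 levels in ABCF1 knockdown were 29.3% and 47.8% (RNA-seq) and 34.2% and 50.6% (Ribo-seq). Of 12 fibroblast markers 11 were listed, with a summed RNA-seq level of 901 to 1436, and Lum was at 0 in every library. The transcript kept for Pdgfra, Pdgfrb, Prrx1 and Fbn1 was listed in replicate 1 files only, where the second set lists another transcript of each, so marker sums are read within a set. Endothelial markers summed to at most 2.90 in RNA-seq, with Cdh5 and Tie1 at 0, and leukocyte markers to at most 8.28, with Adgre1 at 0. Epithelial markers summed to 50.5 to 105 (Epcam and Cldn4 at 0), mostly Krt18. In bulk libraries fewer cells of a type and less RNA per cell cannot be told apart.

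Type I chains were among the most abundant messages of the cell. Levels are RPKM (reads per kilobase of transcript, relative to the total reads of the library) scaled so that all libraries share a median over tested genes. RPKM is per length, so genes can be compared. Col1a1 had Scram RNA-seq levels of 1508 and 2001, ranks 10 and 8 of 9021 genes, and Scram Ribo-seq levels of 2274 and 1305, ranks 36 and 95 of 9534. Col1a2 followed at 927 and 945 in RNA-seq and 825 and 504 in Ribo-seq. Col3a1 came next with RNA-seq levels of 362 and 653, then Col5a2 at 221 and 374. Both replicates and both assays gave this order of the first 4 chains. The order of the remaining 5 differed between replicates, so they are not ranked: RNA-seq levels in Scram were 102 and 102 for Col5a1, 85.7 and 211 for Col4a1, 45.9 and 113 for Col4a2, 117 and 69.7 for Col6a1, and 22.7 and 48.2 for Col6a2. All 10 chains together took between 1.14% and 1.55% of the reads in RNA-seq libraries, and between 1.202% (Torin) and 3.09% (METTL3 replicate 2) in Ribo-seq libraries. Read numbers were large for Col1a1 (7073 to 55093 per library) and, among the 9 tested chains, smallest for Col6a2, with 62 to 394 reads in RNA-seq.

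Ribosome occupancy per message was low for the basement membrane chains. The ratio of Ribo-seq to RNA-seq level in Scram was lowest for Col4a2, at 0.465 and 0.257, with 20.7% and 6.09% of genes lower. Col4a1 was next lowest in both replicates at 0.583 and 0.271. Col1a1 had 1.51 in replicate 1 and 0.652 in replicate 2. All 9 tested chains had a lower ratio in Scram replicate 2 than in Scram replicate 1. That library is the reference for every replicate 2 and Torin comparison below.

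**Figure D1:**
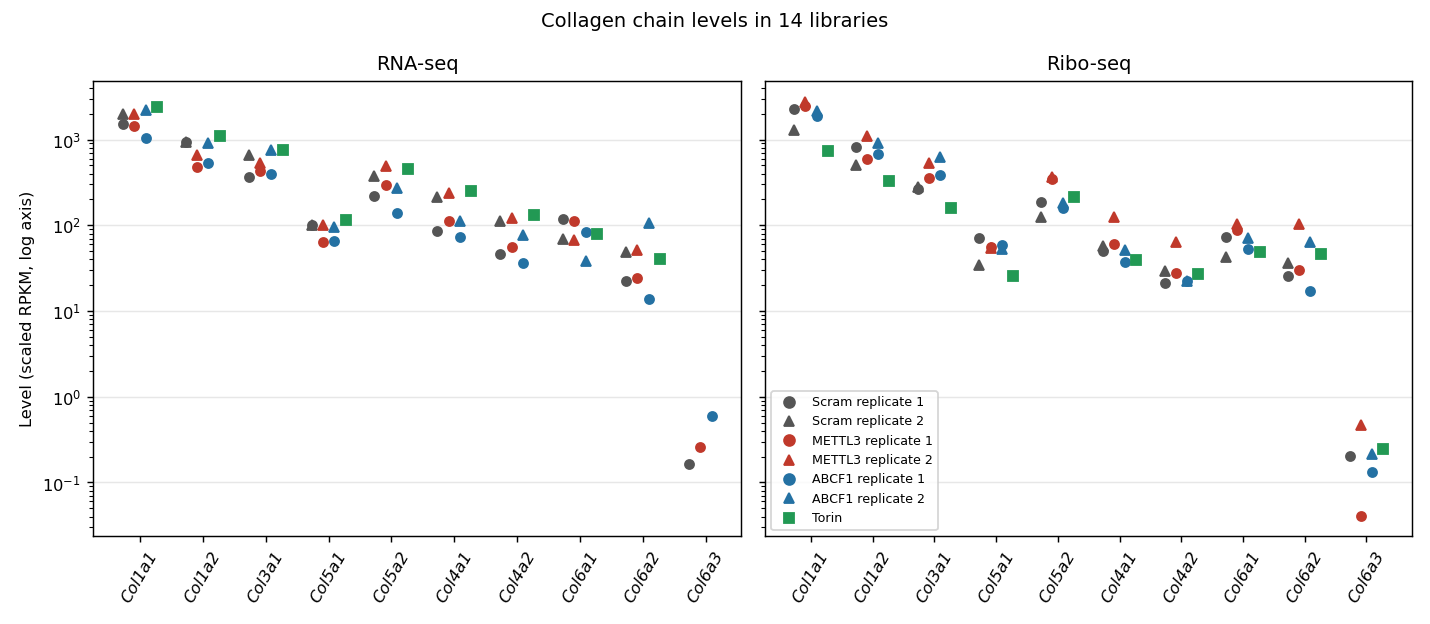
Level of each collagen chain (scaled RPKM, log axis) in the 7 RNA-seq and 7 Ribo-seq libraries, 1 point per library; libraries where Col6a3 is not listed are not drawn. Col1a1 is the highest chain in every library and Col6a3 lies below 1 throughout.

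With METTL3 knockdown, ribosome-protected reads on most collagen chains were higher than in Scram, while their mRNA levels lay on both sides of Scram. In Ribo-seq, 7 of 9 chains were higher in both replicates, against 27.8% of the 9534 genes tested, and 0 were lower in both, against 25.2%. The exceptions were Col1a2 and Col5a1, which were lower in replicate 1 and higher in replicate 2. The all-gene shares of this kind, here and below, include genes whose kept transcript was unlisted throughout 1 set. Such a gene had a difference of 0 there and could count in neither direction, which lowers the shares. The tested chains were listed in every library. The median log2 difference of the 9 chains was 0.69 beside 0.02 for all genes. It was uneven between replicates, 0.26 in replicate 1 and 1.12 in replicate 2, and each of the 9 chains had the larger value in replicate 2. Without METTL3 replicate 2 the chain median was 0.16.

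Col5a2, the α2(V) chain, had the lowest p-value among the chains. Its Ribo-seq levels were 186 and 126 in Scram, 345 and 367 in METTL3, 160 and 184 in ABCF1, and 215 with Torin. Both METTL3 libraries stood above the other 5. The log2 change was 1.21 (SE 0.31) and the same-replicate differences were 0.89 and 1.53. It missed the threshold over all genes (limma, adjusted p = 1, or 0.15 with the replicate block; unadjusted p = 0.012). RNA-seq levels of Col5a2 were 221 and 374 in Scram, 294 and 487 in METTL3, 140 and 269 in ABCF1, and 450 with Torin. Scram and METTL3 overlapped across the sets. Against Scram of the same replicate the METTL3 RNA-seq levels were higher by 0.41 and 0.38 on the log2 scale.

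For Col1a1, the α1(I) chain, the Ribo-seq levels were 2274 and 1305 in Scram, 2489 and 2760 in METTL3, 1904 and 2137 in ABCF1, and 738 with Torin. METTL3 libraries lay above both Scram libraries, though in replicate 1 by only 0.13 on the log2 scale against 1.08 in replicate 2. RNA-seq levels were 1508 and 2001 in Scram, 1455 and 1961 in METTL3, 1053 and 2215 in ABCF1, and 2396 with Torin. The METTL3 libraries differed from Scram of the same replicate by -0.052 and -0.029 on the log2 scale.

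Its partner Col1a2 behaved differently at the mRNA level. Col1a2 RNA-seq levels were 927 and 945 in Scram, 473 and 667 in METTL3, 527 and 900 in ABCF1, and 1114 with Torin. Both METTL3 libraries were below both Scram libraries, by 0.97 and 0.50 on the log2 scale, with a fitted change of -0.74 (SE 0.41, limma, adjusted p = 1). Ribo-seq levels of Col1a2 were 825 and 504 in Scram, 598 and 1094 in METTL3, 680 and 906 in ABCF1, and 333 with Torin, so the METTL3 libraries lay on both sides of Scram.

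For Col3a1, the type III chain, Ribo-seq levels were 267 and 282 in Scram, 359 and 538 in METTL3, 387 and 623 in ABCF1, and 159 with Torin. Every knockdown library was above both Scram libraries, and Torin was below them. RNA-seq levels were 362 and 653 in Scram, 426 and 536 in METTL3, 393 and 765 in ABCF1, and 763 with Torin. These overlapped between groups.

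Col5a1, the α1(V) chain, had RNA-seq levels of 102 and 102 in Scram, 63.8 and 100.4 in METTL3, 66.4 and 96.3 in ABCF1, and 116 with Torin. Its Ribo-seq levels in the same order were 71.0 and 34.7, 55.3 and 54.7, 58.5 and 53.5, and 25.7. All 4 knockdown Ribo-seq libraries lay between the Scram libraries, and Torin was the lowest.

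Among the basement membrane chains, Col4a1 Ribo-seq levels were 49.997 and 57.3 in Scram, 59.9 and 126 in METTL3, 37.6 and 51.3 in ABCF1, and 39.2 with Torin. Col4a2 Ribo-seq levels were 21.3 and 28.9 in Scram, 27.8 and 63.3 in METTL3, 22.4 and 22.3 in ABCF1, and 27.1 with Torin. METTL3 replicate 2 was the highest library for both chains. In RNA-seq Col4a1 stood at 85.7 and 211 in Scram, 111 and 236 in METTL3, 73.4 and 113 in ABCF1, and 249 with Torin. Replicate 2 was above replicate 1 in all 3 groups, and ABCF1 was the lowest group in each set. Col6a1, a beaded filament chain, stood in Ribo-seq at 73.5 and 42.4 in Scram against 88.9 and 104 in METTL3, a fitted log2 change of 0.77 (SE 0.38).

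In all, 5 of 9 chains (Col1a1, Col3a1, Col5a2, Col4a1 and Col6a1) had both METTL3 Ribo-seq libraries above both Scram libraries, against 12.1% of genes, and 0 had both below, against 10.3%. In RNA-seq, 4 of 9 were higher in both replicates (25.4% of 9021 genes) and 4 lower in both (26.1%), with a chain median of -0.03 beside -0.01 for all genes. On the deposited RPKM without scaling, Col4a2 and Col6a2 RNA-seq values of METTL3 replicate 2 were below Scram (60.7 against 61.2, and 25.6 against 26.2). Col1a2 and Col5a1 were the chains with both METTL3 RNA-seq libraries below both Scram libraries, where 9.7% of genes were. No chain had both above, where 9.33% of genes did.

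Translational efficiency (TE) was taken as the difference in Ribo-seq less that in RNA-seq, both on the log2 scale. In METTL3 it was higher in both replicates for 8 of 9 chains, against 29.3% of 9428 genes, and lower in both for 0, against 23.4%. The chain without this pattern was Col4a1, at -0.12 and 0.97. In replicate 1 Col4a2 (0.11, counting SE 0.13) and Col6a2 (0.17, counting SE 0.22) were higher by less than their counting error. The median over the chains was 0.70 beside 0.04 for all genes, with 0.20 in replicate 1 and 1.15 in replicate 2. Col1a2 had the highest fitted TE change, 1.06 (SE 0.63), from 0.51 and 1.62, and Col4a1 the lowest, 0.43 (SE 0.80). Of all genes, 0% were called for Ribo-seq, RNA-seq or TE in METTL3 (limma, adjusted p under 0.05), and 0 of 9 chains. At an unadjusted p under 0.05 there were 246 genes in Ribo-seq (2.58%), among them Col5a2, with 65 in RNA-seq (0.721%) and 33 in TE (0.35%), among which there was no chain. With the replicate block 6 genes were called in Ribo-seq (0.0629%), again with no chain. Muscle markers, mostly Acta2, also differed in these libraries: their summed RNA-seq level was 352 to 398 in METTL3 against 1000 to 1011 in Scram, with Myod1 at 0. Epithelial markers, mostly Krt18, summed to 50.5 to 57.1 in METTL3 RNA-seq against 78.7 to 98.4 in Scram, and to 85.2 to 128 against 139 to 154 in Ribo-seq. The part of either list in the collagen values was not tested.

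With ABCF1 knockdown the chains had somewhat lower mRNA levels and mixed Ribo-seq levels. In RNA-seq 6 of 9 were lower in both replicates, against 29% of genes, and 1 (Col3a1) higher in both, against 21.8%. The chain median was -0.44 beside -0.06 for all genes, with -0.52 and -0.08 in the replicates. It was 0.02 without Scram replicate 2, -0.06 without ABCF1 replicate 1 and -0.83 without ABCF1 replicate 2. Without scaling, Col1a1 was also lower in both replicates, and Col3a1 was lower in replicate 2 (328 against 355 deposited RPKM). Col4a1 RNA-seq levels were 85.7 and 211 in Scram and 73.4 and 113 in ABCF1, and Col6a1 levels were 117 and 69.7 against 84.0 and 38.3. The groups overlapped for both. Col1a2 and Col5a1 alone had both ABCF1 RNA-seq libraries below both Scram libraries, where 11.6% of genes did, and no chain had both above, where 8.74% did.

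In Ribo-seq the direction followed the replicate. The chain median was -0.28 in replicate 1 and 0.71 in replicate 2, 0.16 in the fit beside 0.00 for all genes, and -0.12 without Scram replicate 2. Col3a1 was the 1 chain of 9 higher in both replicates (25.3% of genes), and the 1 with both ABCF1 libraries above both Scram libraries (10.8%), while 0 chains had both below (8.1%). Its differences were 0.53 and 1.14 and its fitted change 0.84 (SE 0.38, limma, adjusted p = 1). Col4a1 was the 1 chain lower in both (23% of genes), at -0.40 and -0.16. TE was higher in both replicates for 6 of 9 chains, against 29.1% of genes, and lower in both for 0, against 21.4%. These 6 were all 5 fibrillar chains and Col4a2. The chain median of TE was 0.51 beside 0.06 for all genes, 0.18 without the RNA-seq library of ABCF1 replicate 1 and 0.24 without that of Scram replicate 2. Col6a1 had the highest TE change, 0.78 (SE 0.68), which came from 1 replicate (-0.01 and 1.58). In ABCF1 0% of genes and 0 of 9 chains were called in any assay or TE, with or without the block. At an unadjusted p under 0.05 there were 110 genes in Ribo-seq (1.15%), 80 in RNA-seq (0.887%) and 31 in TE (0.329%), and no chain.

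The METTL3 and ABCF1 comparisons share the Scram libraries, so the knockdowns were also compared directly. In Ribo-seq 6 of 9 chains were higher in METTL3 than in ABCF1 in both replicates, against 30.6% of genes, and 1 (Col3a1) was lower in both, against 27.4%. For 5 chains (Col1a1, Col5a2, Col4a1, Col4a2 and Col6a1) both METTL3 libraries were above both ABCF1 libraries, against 12% of genes. Col5a2 differed by 1.05 (SE 0.31), 1.10 and 0.99 in the replicates, with an unadjusted p of 0.021 (limma, adjusted p = 1, or 0.21 with the block). Col4a1 differed by 0.97 (SE 0.45) and Col4a2 by 0.88 (SE 0.47). The chain median was 0.65 beside 0.02 for all genes, and 0.29 and 0.30 without ABCF1 replicate 1 and METTL3 replicate 2. RNA-seq differences had the same sign for these type IV and V chains. Col5a2 was higher in METTL3 by 0.96 (SE 0.49), Col4a1 by 0.83 (SE 0.60) and Col4a2 by 0.63 (SE 0.66). With the replicate block their SEs were 0.17, 0.22 and 0.18 in that order, with adjusted p of 0.36 to 0.39 (limma). In RNA-seq 4 of 9 chains were higher in both replicates, against 31.8%, and 1 (Col1a2) lower, against 25.3%. Both METTL3 RNA-seq libraries were above both ABCF1 libraries for 1 chain, Col5a2 (15.1% of genes). TE was higher in both for 3 of 9 chains, against 23.5%, and lower in both for 1, against 26.5%. Of all genes 0% were called in any of these, and 0 of 9 chains. At an unadjusted p under 0.05 there were 205 in Ribo-seq (2.15%, Col5a2 among them), 250 in RNA-seq (2.77%) and 43 in TE (0.456%). With the block 12 genes were called in Ribo-seq (0.126%), none of them a chain.

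**Figure D2:**
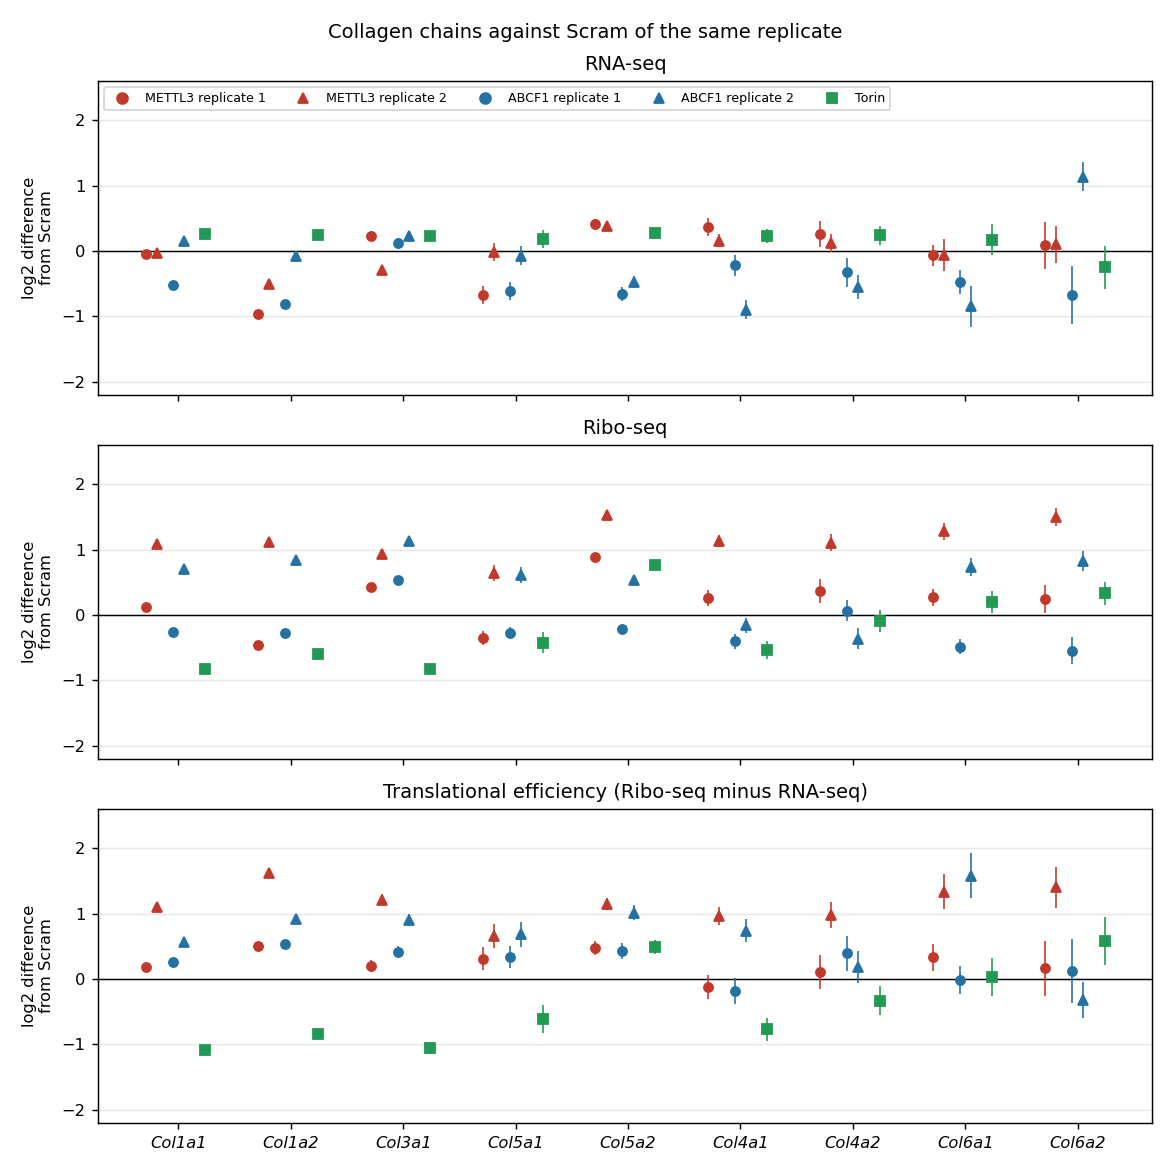
Log2 difference from Scram of the same replicate (Torin from Scram replicate 2) for the 9 tested chains in RNA-seq, Ribo-seq and TE; vertical lines are 95% intervals of counting error only. METTL3 replicate 2 (red triangles) is above 0 for all 9 chains in Ribo-seq and TE, while the type I and III chains with Torin (green squares) are near 0.25 in RNA-seq and below -0.5 in Ribo-seq.

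After 2 h of Torin1 the mRNA levels of the chains were close to those of Scram replicate 2, and their Ribo-seq levels split by chain. RNA-seq differences ran from 0.17 (Col6a1) to 0.27 (Col5a2) for 8 chains and Col6a2 stood at -0.25. On the deposited RPKM without scaling Col6a1 was level with Scram (37.87 against 37.91) and the other 7 remained higher. None of the chains passed a difference of 0.5 in RNA-seq, while 15.5% of genes were lower and 8.92% higher by more than that. In Ribo-seq 4 of 9 chains were lower by over 0.5, against 17.7% of genes, and 1 was higher, against 13.8%. The 4 were Col3a1 (-0.83), Col1a1 (-0.82), Col1a2 (-0.60) and Col4a1 (-0.54), and Col5a1 was at -0.42. Col5a2 was the 1 chain higher by over 0.5, at 0.77, with 171% of the Scram replicate 2 level. Levels in both assays are relative to the other genes of a library. A change shared by all genes would therefore not show in them or in TE. The counts of chains past 0.5 also depend on the scaling. Without it Col1a2 (569 against 744 deposited RPKM) and Col4a1 (67.1 against 84.6) were not lower by over 0.5. Col6a2 (78.1 against 53.2) was then higher by over 0.5, as Col5a2 was. The remaining chains were between -0.09 (Col4a2, which was higher without scaling, 46.5 against 42.7 deposited RPKM) and 0.33 (Col6a2). Muscle markers with Torin summed to 864 in Ribo-seq (1660 to 1722 in Scram) and 928 in RNA-seq (1000 to 1011). Epithelial markers summed to 47.6 in Ribo-seq (139 to 154 in Scram) and 105 in RNA-seq (78.7 to 98.4). Their part in the Torin values of the chains was not tested.

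TE with Torin was lower by over 0.5 for 5 of 9 chains, against 18.1% of genes. It was -1.08 for Col1a1, -1.05 for Col3a1, -0.84 for Col1a2, -0.77 for Col4a1 and -0.61 for Col5a1. Within the fibrillar class Col5a2 went the other way at 0.50, and Col6a2 was the 1 chain higher by over 0.5 (0.58), against 22.4% of genes. On the deposited RPKM without scaling, Col1a1 and Col3a1 were the only chains with TE lower by over 0.5. Col5a2 and Col6a2 were then both higher by over 0.5. The chain median of TE was -0.61 within the set. The fit against both Scram libraries gave -1.11 beside 0.04 for all genes, 0.46 in RNA-seq and -0.44 in Ribo-seq, and these hold part of the difference between the sets. The spread of the single Torin library was taken from the other groups. In Torin 0% of genes were called in any readout, and 0 of 9 chains, although at an unadjusted p under 0.05 there were 298 genes in Ribo-seq (3.13%), 230 in RNA-seq (2.55%) and 270 in TE (2.86%). With the block limma called 134 genes in Ribo-seq (1.41%), 83 in TE (0.88%) and 32 in RNA-seq (0.355%), none of them a chain. The lowest adjusted p of a chain was then 0.21, for Col3a1 in Ribo-seq (log2 change -1.01, SE 0.30).

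**Figure D3:**
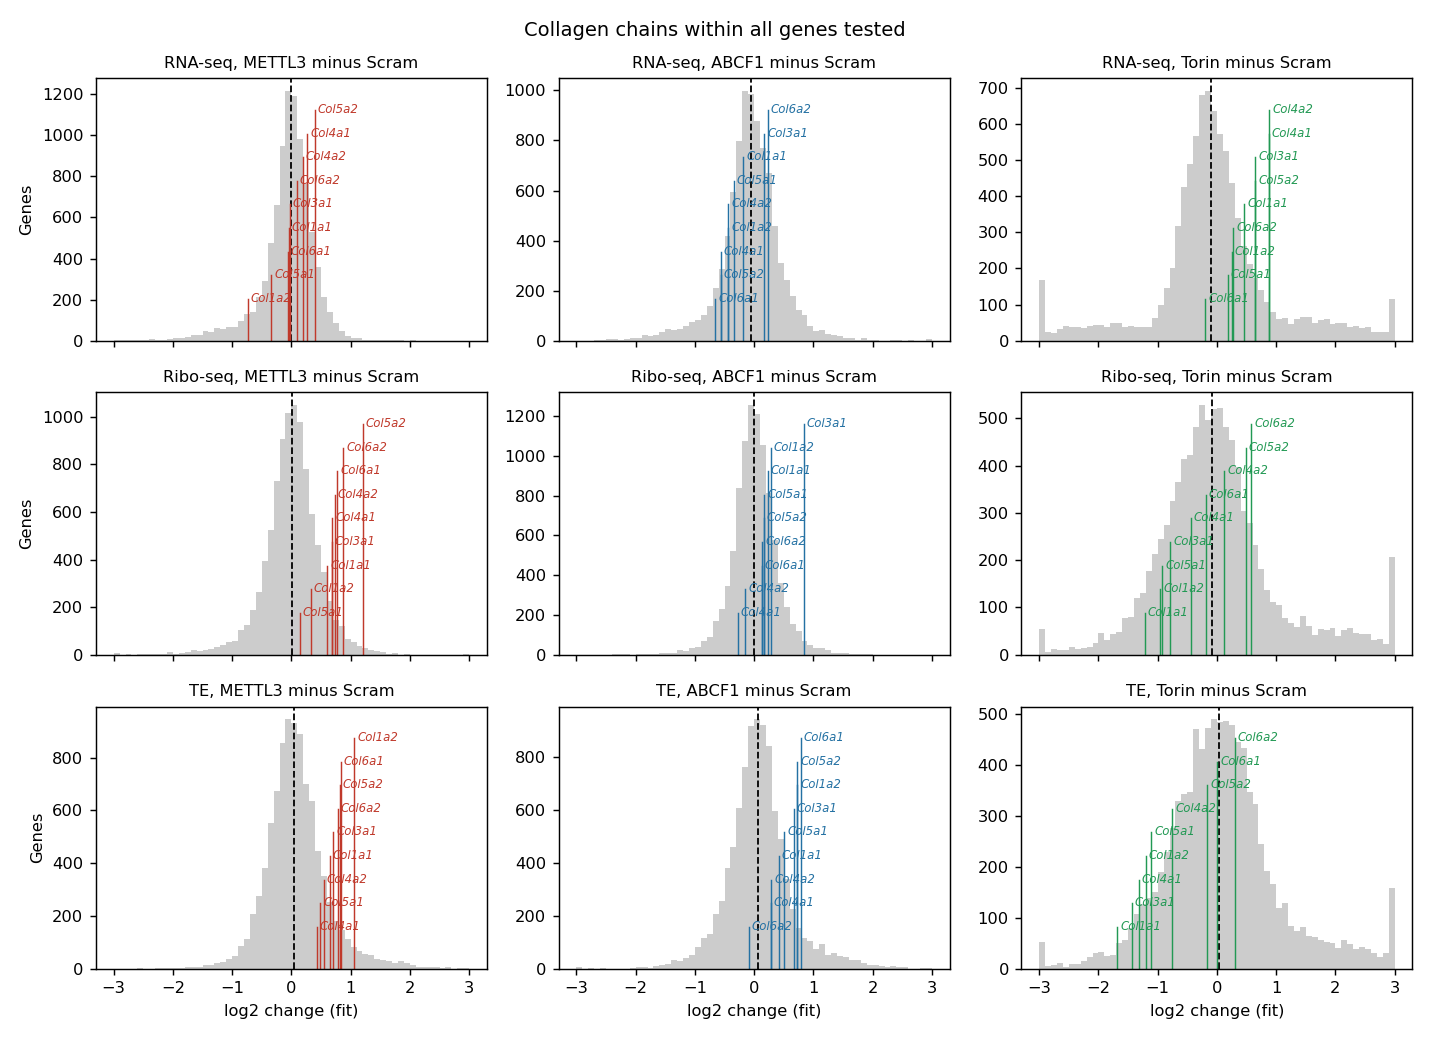
Fitted log2 changes of all tested genes (grey bars, number of genes; dashed line, their median; values beyond 3 in either direction are placed in the end bars) with the 9 chains marked, for RNA-seq, Ribo-seq and TE in the 3 comparisons with Scram. In METTL3 all 9 chains lie to the right of the all-gene median in Ribo-seq and TE, and in Torin the type I and III chains lie to its left.

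Ratios between partner chains do not depend on scaling. Col1a1 to Col1a2 was 2.76 and 2.59 in Scram Ribo-seq, 4.17 and 2.52 in METTL3, 2.80 and 2.36 in ABCF1, and 2.22 with Torin. METTL3 replicate 1 stood apart and the other 6 libraries lay between 2.22 and 2.80. In RNA-seq the Col1a1 to Col1a2 ratio was 1.63 and 2.12 in Scram, 3.08 and 2.94 in METTL3, 2.00 and 2.46 in ABCF1, and 2.15 with Torin. Both METTL3 libraries were above the other 5. A type I molecule pairs α1 and α2 chains unequally, and the ratio of reads was above 1 in all 14 libraries.

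For type V the Col5a1 to Col5a2 ratio was 0.381 and 0.275 in Scram Ribo-seq, 0.160 and 0.149 in METTL3, 0.365 and 0.291 in ABCF1, and 0.119 with Torin. METTL3 and Torin libraries were all below the 4 Scram and ABCF1 libraries. The RNA-seq ratio was 0.461 and 0.272 in Scram, 0.217 and 0.206 in METTL3, 0.473 and 0.359 in ABCF1, and 0.257 with Torin. METTL3 libraries were the lowest in RNA-seq, and Torin was close to Scram replicate 2. With 2 libraries per group no exact test of a ratio can pass 0.05, and none was run.

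Col4a1 and Col4a2 had ratios of 1.47 to 2.02 in RNA-seq libraries, with Ribo-seq ratios of 1.44 to 2.34. In RNA-seq 6 libraries lay between 1.86 and 2.02 and ABCF1 replicate 2 at 1.47 (95% counting interval 1.27 to 1.71). Torin had the lowest Ribo-seq ratio, 1.44 (1.27 to 1.64). These genes lie head to head on chromosome 8, Col4a1 on the minus strand (chr8:11198423-11312826) and Col4a2 on the plus strand (chr8:11312805-11449287), and the annotated starts overlap by 22 bases. The overlap is in capitals below, within chr8:11312801-11312830 of GRCm38.p6, plus strand, from the RefSeq promoter table.
Col4a1 and Col4a2 starts: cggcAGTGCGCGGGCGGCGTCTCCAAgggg
RefSeq promoters (250 bases before to 50 after the start) were matched for 8 of the 10 chains, Col1a1 and Col5a2 not among them. GGGCGG, searched on both strands, occurred in those of Col5a1, Col1a2, Col4a1, Col4a2 and Col6a2 and in 35.6% of all 32817 promoters. CCAAT occurred in those of Col1a2, Col4a1 and Col4a2 and in 37.4% of all. TATAAA occurred in that of Col3a1 and in 13.6% of all. The Col4a1 and Col4a2 windows overlap and share bases.

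**Figure D4:**
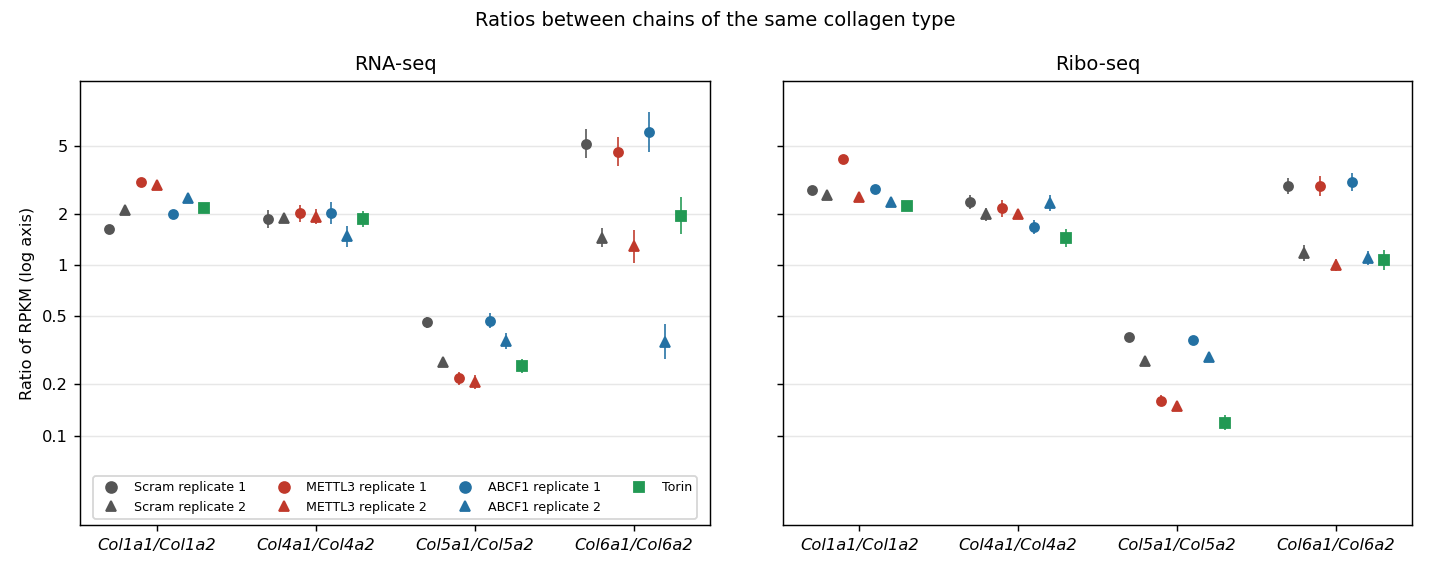
Ratio of deposited RPKM between partner chains in each library (log axis; circles replicate 1, triangles replicate 2, squares Torin; vertical lines 95% counting intervals). Both METTL3 libraries have the highest Col1a1 to Col1a2 ratio in RNA-seq and the lowest Col5a1 to Col5a2 ratio in RNA-seq, while Torin has the lowest Col5a1 to Col5a2 ratio in Ribo-seq; the Col6a1 to Col6a2 ratio separates the replicate sets.

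Values of the type VI chains carry a limit of listing. Col6a2 has 2 listed transcripts, and the other one appears in replicate 1 files only, at 85.3 RPKM in Scram Ribo-seq beside 29.5 for the transcript used here. The Col6a1 to Col6a2 ratio was 2.90 to 3.06 in replicate 1 Ribo-seq and 1.00 to 1.18 in the second set, and Col6a2 is uncertain across sets. The part of the listing in this difference was not tested. Its RNA-seq level in ABCF1 replicate 2 was 107, from 254 reads, against 48.2 in Scram replicate 2, while Col6a1 went from 69.7 to 38.3. Col6a3, the long chain that completes the type VI molecule, was listed in 9 of 14 libraries with 1 to 13 reads and a level of at most 0.589. In METTL3 Ribo-seq replicate 2, where Col6a3 had its 13 reads, the Col6a1 to Col6a3 ratio was 220 (95% counting interval 128 to 381).

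Of the 34 other collagen chains 9 were tested in each assay, and none was called in any comparison. Col8a1, a short-chain network collagen, had the highest level of these chains in all 7 Ribo-seq libraries, at 52.2 and 63.6 in Scram Ribo-seq and 108 with Torin, 0.76 above Scram replicate 2 on the log2 scale. Col4a6 stood in Ribo-seq at 4.04 and 6.27 in Scram and 13.5 and 14.6 in METTL3, a change of 1.31 (SE 0.37, limma, adjusted p = 1, or 0.12 with the block). The 9 had a TE median of 0.57 in METTL3, with 8 of 9 higher in both replicates (29.3% of genes). Some of the tested chains were near the floor. Col5a3 Ribo-seq levels were 1.31 and 2.29 in Scram and 0.315 and 2.02 in METTL3. Col27a1 RNA-seq was at 0 in METTL3 replicate 2, where an unlisted value was set to 0. With Torin 5 of 9 were higher by over 0.5 in Ribo-seq (13.8% of genes) and 1 lower (17.7%).

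The machinery that folds, exports and crosslinks procollagen was described from lists. For procollagen folding and hydroxylation 20 of 21 genes were tested. In METTL3 Ribo-seq 3 of 20 were higher and 7 lower in both replicates, with a median of 0.12 (27.8% and 25.2% of all genes). TE had 5 higher and 4 lower (29.3% and 23.4%). In ABCF1 TE 13 of 20 were higher in both and 1 lower (median 0.33), against 29.1% and 21.4% of all genes. With Torin the Ribo-seq median was -0.30 against Scram replicate 2, 6 of 20 lower and 0 higher by over 0.5 (17.7% and 13.8% of all genes). Serpinh1, the collagen chaperone HSP47, was named after its values were seen, and its Scram Ribo-seq levels were 955 and 680, with 930 and 1059 in METTL3 and 360 in Torin. Creb3l1, a transcription factor of secretory cells, had RNA-seq levels of 23.6 and 19.9 in Scram and 7.27 and 4.05 in METTL3, a change of -1.81 (SE 0.40, limma, adjusted p = 1, unadjusted p = 0.0059). Fkbp10, a procollagen prolyl isomerase, was higher in METTL3 than in ABCF1 RNA-seq by 0.88 (SE 0.27).

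For procollagen export, the vesicle coat and its adaptors, 12 of the 16 names in the list were tested. Some of the 16 are aliases of another name in the list. In METTL3 Ribo-seq 8 of 12 were lower in both replicates and 1 higher, a median of -0.19 (25.2% and 27.8% of all genes). Sec23a, a coat subunit, stood in Ribo-seq at 20.1 and 14.5 in Scram and 12.9 and 6.74 in METTL3, a change of -0.80 (SE 0.41). Trappc2 in RNA-seq was at 5.05 and 2.40 in Scram and at 0 with Torin, and also at 0 in METTL3 and ABCF1 replicate 2. Among genes of propeptide cleavage and crosslinking, Loxl1, a lysyl oxidase, stood in Ribo-seq at 54.6 and 52.4 in Scram and 132 and 91.4 in METTL3 (1.02, SE 0.31), and RNA-seq levels of 26.4 and 53.3 against 57.6 and 74.8. Pcolce2, an enhancer of propeptide cleavage, was lower in METTL3 than in ABCF1 RNA-seq by 1.10 on the log2 scale (log2 change -1.10, SE 0.31). In that list 6 of 9 were higher in both replicates in ABCF1 Ribo-seq and 0 lower (25.3% and 23% of all genes), and in METTL3 it was 3 and 3 (27.8% and 25.2%). Among collagen mRNA binding proteins Larp6, named above, was low, at 0.974 and 0.713 in Scram Ribo-seq, and its METTL3 minus ABCF1 TE value was -1.43 (SE 0.73), with RNA-seq at 0 in Scram and ABCF1 replicate 2. For Fkbp3 the Ribo-seq levels were 138 and 92.7 in Scram, and 61.3 in Torin. None of these genes was called in any comparison.

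The 5 genes outside the members most like the mean of the chains were Mmp17 (r = 0.946), Tmem132a (0.939), Gcn1l1 (0.934), Mrpl49 (0.930) and Ddost (0.930). The measure was Pearson's r over 14 libraries of log2 levels centred within assay and replicate set, among 9419 genes, and the libraries share depth and the Scram reference. In Ribo-seq with METTL3 they differed from Scram by -0.12 to 0.13 in replicate 1 and by 0.57 to 1.18 in replicate 2. The chain medians were 0.26 and 1.12. The 5 genes were picked on these same libraries, so their likeness was set by the choice. Each chain's own r with the mean of the others ran from 0.492 (Col6a2) to 0.904 (Col1a1).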

How the data were processed

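The authors deposited 1 table of RPKM values per library, keyed by Ensembl transcript. Per the submitters' processing notes the tools were cutadapt and Bowtie and the build was GRCm38. Tool versions and the handling of multiply mapping reads were not given in the sources used here. Multiplying RPKM by GENCODE M21 coding length (Ribo-seq) or transcript length (RNA-seq) gave whole reads, within 0.02 of a read, for 98.7% to 98.9% and 80.8% to 85.8% of values under 400 reads, which gives the depth; intervals cover counting error only. Of 22453 transcripts 22356 matched GENCODE M21. For each gene the transcript with the highest mean RPKM was kept, and an unlisted value was set to 0.

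Each library was multiplied so that its median across the genes tested matched the mean of the 14 medians, and log2(level + 1) was used. Genes listed in at least 0.5 of libraries with a mean RPKM of at least 1 were tested: 9021 (RNA-seq), 9534 (Ribo-seq) and 9428 (TE). Changes were fitted with limma 3.58.1 (lmFit, eBayes with trend, R 4.3.3) over all 4 groups with 3, 3 and 6 residual degrees of freedom, TE as an interaction, adjusted by Benjamini-Hochberg, and called under 0.05. The script was tested on simulated data. Same-numbered libraries were checked for pairing: their deviations from the group means correlated at 0.814 to 0.873 (RNA-seq) and 0.910 to 0.940 (Ribo-seq). Genes unlisted throughout 1 set were included, so these values hold the difference in listing between the sets. They cannot show that same-numbered libraries are biological pairs. The replicate block was used as an alternative. Torin took the level of replicate 2. The 10 genes, the lists, tests and alternatives were chosen with earlier results of these data known, so no list is independent support. Genes named were the 10 chains, 2 per pathway list with the lowest p in any of 12 comparisons, the 5 most alike genes, and both targets, except that a gene and a sequence are not reported here, and of the marker lists only Acta2 is named with its values. Serpinh1, Krt18, Col5a3 and Col27a1 were named after their values were seen.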

Additional observations from a re-analysis of the deposited data

How the results depend on the processing

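No chain passed an adjusted p of 0.05 (limma) under any alternative: another pseudocount (0.1), no filter on low values, no scaling, quantile normalization, the replicate block, summed transcripts, or leaving out each library in turn. Of 648 fitted single-chain values outside the left-out libraries 30 changed sign, and of 504 with a library left out 100 did. Genes called outside the chains changed from 0 in Torin to 2 (RNA-seq) and 36 (TE) with the pseudocount of 0.1, to 13 (Ribo-seq) and 32 (TE) without the filter, and to 32 (RNA-seq), 134 (Ribo-seq) and 83 (TE) with the replicate block. The block also gave 6 genes in METTL3 Ribo-seq and 12 in METTL3 minus ABCF1 Ribo-seq. It changed no call of a chain. The Torin chain median was 0.021 (RNA-seq), -0.063 (Ribo-seq) and -0.30 (TE) without scaling, and in Ribo-seq -0.23 with quantile normalization, -0.72 with the block and -0.21 with summed transcripts. Without scaling the median of all genes moved from -0.10 to -0.49 in Torin RNA-seq, from -0.08 to 0.27 in Torin Ribo-seq, from 0.04 to 0.78 in Torin TE and from 0.06 to 0.21 in ABCF1 TE. The cause of these changes was not tested. With quantile normalization the fitted sign of single chains turned to RNA-seq METTL3 Col3a1 0.0142, RNA-seq METTL3 minus ABCF1 Col1a1 -0.13 and Col5a1 -0.0774, Ribo-seq Torin Col6a1 0.0651, Ribo-seq METTL3 minus ABCF1 Col1a2 -0.0903, TE Torin Col5a2 0.43. With the listed transcripts of a gene summed it turned to RNA-seq METTL3 Col6a2 -0.0168, RNA-seq Torin Col6a2 -0.46, Ribo-seq Torin Col6a1 0.0402 and Col6a2 -0.15, TE ABCF1 Col6a2 0.0372. Without scaling it turned to RNA-seq Torin Col6a2 -0.15 and Col5a1 -0.25 and Col1a2 -0.19, Ribo-seq Torin Col6a1 0.19, Ribo-seq METTL3 minus ABCF1 Col1a2 -0.0511, TE ABCF1 Col6a2 0.0912, TE Torin Col5a2 0.67 and Col4a2 0.0604, TE METTL3 minus ABCF1 Col6a1 -0.10 and Col5a2 -0.0809 and Col3a1 -0.13 and Col4a1 -0.0153. With the replicate block it turned to RNA-seq Torin Col6a1 0.23 and Col6a2 -0.56 and Col5a1 -0.0112, Ribo-seq Torin Col6a2 -0.11 and Col4a2 -0.14, TE Torin Col6a1 -0.41 and Col5a2 0.29. 

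Leaving out each library in turn moved the chain median over these ranges: RNA-seq METTL3 -0.38 to 0.40, RNA-seq ABCF1 -0.83 to 0.0180, RNA-seq Torin 0.23 to 0.80, RNA-seq METTL3 minus ABCF1 -0.26 to 0.68, Ribo-seq METTL3 0.16 to 0.97, Ribo-seq ABCF1 -0.12 to 0.52, Ribo-seq Torin -0.58 to -0.42, Ribo-seq METTL3 minus ABCF1 0.29 to 0.87, TE METTL3 0.43 to 1.07, TE ABCF1 0.18 to 0.95, TE Torin -1.22 to -0.67, TE METTL3 minus ABCF1 -0.29 to 0.55. With 1 library left in a group, it is assumed to vary like the others. Single chains whose sign turned had these ranges. In RNA-seq METTL3 they were Col6a1 -0.43 to 0.31, Col1a1 -0.26 to 0.17, Col6a2 -0.44 to 0.63, Col3a1 -0.45 to 0.40, Col4a1 -0.38 to 0.91, Col4a2 -0.45 to 0.83. In RNA-seq ABCF1 they were Col1a1 -0.72 to 0.35, Col6a2 -1.20 to 1.67, Col3a1 -0.31 to 0.65, Col4a1 -1.21 to 0.0857, Col4a2 -1.08 to 0.20. In RNA-seq Torin they were Col6a1 -0.57 to 0.17, Col6a2 -0.25 to 0.80. In RNA-seq METTL3 minus ABCF1 they were Col1a1 -0.39 to 0.68, Col6a2 -1.57 to 1.29, Col3a1 -0.68 to 0.28, Col5a1 -0.32 to 0.32, Col1a2 -0.68 to 0.0912. In Ribo-seq METTL3 they were Col5a1 -0.36 to 0.65, Col1a2 -0.11 to 0.76. In Ribo-seq ABCF1 they were Col6a1 -0.27 to 0.52, Col1a1 -0.17 to 0.63, Col6a2 -0.79 to 1.07, Col5a2 -0.12 to 0.44, Col5a1 -0.34 to 0.67, Col1a2 -0.0713 to 0.64, Col4a2 -0.36 to 0.0640. In Ribo-seq Torin they were Col6a1 -0.58 to 0.20, Col4a2 -0.0887 to 0.33. In Ribo-seq METTL3 minus ABCF1 they were Col6a2 -0.19 to 1.67, Col3a1 -0.50 to 0.18, Col5a1 -0.0863 to 0.0393, Col1a2 -0.39 to 0.48. In TE METTL3 they were Col6a2 -0.0870 to 1.66, Col5a1 -0.0195 to 0.99, Col4a1 -0.22 to 1.07, Col4a2 -0.0942 to 1.18. In TE ABCF1 they were Col1a1 -0.12 to 0.95, Col6a2 -1.53 to 1.34, Col4a1 -0.37 to 0.93, Col4a2 -0.35 to 0.93. In TE Torin they were Col6a1 -0.39 to 0.40, Col6a2 -0.23 to 0.83, Col5a2 -0.54 to 0.22. In TE METTL3 minus ABCF1 they were Col6a1 -0.50 to 0.61, Col1a1 -0.30 to 0.77, Col6a2 -0.55 to 2.31, Col5a2 -0.38 to 0.55, Col3a1 -0.44 to 0.52, Col5a1 -0.35 to 0.30, Col1a2 -0.0988 to 0.77, Col4a1 -0.39 to 0.68, Col4a2 -0.33 to 0.83. Depth limits the type VI chains most, with 62 to 394 RNA-seq reads on Col6a2 and at most 13 on Col6a3. With 2 replicates per group and 1 Torin library, a missed threshold does not show that levels were equal.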

Other observations

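Genes that surround the collagen chains outside the cell or act on them were measured in the same libraries, and none of them was called in any comparison (limma, adjusted p under 0.05). Among 7 tested fibril-associated proteoglycans and partners, 5 were lower in both replicates in ABCF1 RNA-seq, with a median of -0.76 (29% of all genes were lower). In each knockdown 6 had a higher TE in both replicates, against 29.3% (METTL3) and 29.1% (ABCF1) of all genes. Nid2, a basement membrane linker, was higher in METTL3 than in ABCF1 RNA-seq by 1.36 (SE 0.26), and Fmod, a small proteoglycan of fibrils, differed by -1.75 (SE 0.55) in Ribo-seq. Of 5 collagen receptors and uptake genes, 4 were lower in both replicates in METTL3 RNA-seq (26.1% of all genes). Ddr2, a collagen-binding kinase, differed by -0.74 (SE 0.31) between METTL3 and ABCF1 Ribo-seq, and Ddr1 by 0.47 (SE 0.24) between ABCF1 and Scram. Of 5 genes of collagen degradation, 4 had both ABCF1 RNA-seq libraries below both Scram libraries (11.6% of all genes). Mmp2, a gelatinase, was higher in METTL3 than in ABCF1 RNA-seq by 1.09 (SE 0.24), and Timp3, an inhibitor of such enzymes, by 1.9599 (SE 0.54).

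Of 13 TGF-beta ligands, receptors and Smads, 8 were lower in both replicates in ABCF1 RNA-seq and 0 higher (29% and 21.8% of all genes), and 8 were lower and 1 higher in Ribo-seq (23% and 25.3%). Smad7, an inhibitor of the pathway, was higher with Torin than in Scram replicate 2 by 0.76 in Ribo-seq. Acta2, smooth muscle actin, had RNA-seq levels of 1009 and 999 in Scram and 397 and 352 in METTL3, a change of -1.42 (SE 0.30, limma, unadjusted p = 0.0047).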
